A study of Mus musculus with 6 samples.

Results

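Cholesterol handling in the fetal mouse lung was followed through 32 genes, chosen by symbol from the deposited table of normalized counts and joined to the raw counts by Ensembl gene identifier. All 32 were found among the 24521 genes of that table and the 55421 genes of the count table, and all 32 had enough reads to be tested. Of these, 20 encode enzymes of sterol synthesis and 12 control synthesis, move sterols within or out of the cell, or store them. RNA sequencing of whole lung lobes at E18.5 (late gestation), taken before the lungs had filled with air and frozen at once, compared 3 Mll3 KO lungs (genotype Mll3FDC/FDC) with 3 wild-type lungs. Mll3, encoded by Kmt2c, is a histone H3 lysine 4 methyltransferase. No treatment was applied, and the parental strain, the litters and whether each library came from a separate embryo are not given in the sources used here, so each p-value here reflects spread among libraries that may be technical in part.

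Cholesterol is built from acetyl-CoA in a pathway that first makes mevalonate and isoprenoid units, then joins them into squalene and closes, trims and reduces the ring system. When membranes of the endoplasmic reticulum are low in sterol, SCAP carries the transcription factor SREBP-2 to the Golgi for cleavage, and INSIG proteins hold it back when sterol is plentiful. Excess sterol, sensed as oxysterols by the liver X receptors (LXR), is exported by ABC transporters or esterified for storage. In the lung around birth, cholesterol is the main neutral lipid of the surfactant that alveolar type 2 cells secrete, and lung macrophages depend on sterol efflux when they clear it.

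Promoter sequence was read for motifs of this control. SREBP factors bind sterol regulatory elements, whose core was searched as CACNCCAC, and act with NF-Y at CCAAT boxes and with Sp1 at GGGCGG. Each window below runs from 250 bases before to 50 bases after the RefSeq start of the gene (300 bases, GRCm38.p6, which is mm10), read 5′ to 3′ on the strand of the gene. They are shown because they were the only windows found for the 32 genes with an exact match to this core. Sterol regulatory elements of other spelling were not searched, so a window without a match may still hold one. Capitals mark the sterol core and CCAAT boxes on either strand, so the reverse forms begin with GTGG and ATTGG. Hmgcs1, the HMG-CoA synthase gene (plus strand, chr13:119690101-119690400), has its core 136 bases before the start and 4 CCAAT boxes. Insig1 (plus strand, chr5:28071162-28071461) has its core 9 bases before the start, and Acat2, the cytosolic acetoacetyl-CoA thiolase gene (minus strand, chr17:12960676-12960975), has 2 cores, 181 and 53 bases before the start.
Hmgcs1: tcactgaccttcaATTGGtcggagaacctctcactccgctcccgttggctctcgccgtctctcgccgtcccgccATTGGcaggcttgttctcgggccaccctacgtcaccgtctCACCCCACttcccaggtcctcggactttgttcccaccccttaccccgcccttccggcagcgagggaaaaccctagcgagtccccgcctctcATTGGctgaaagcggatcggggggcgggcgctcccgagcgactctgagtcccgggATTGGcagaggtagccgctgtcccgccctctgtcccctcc
Insig1: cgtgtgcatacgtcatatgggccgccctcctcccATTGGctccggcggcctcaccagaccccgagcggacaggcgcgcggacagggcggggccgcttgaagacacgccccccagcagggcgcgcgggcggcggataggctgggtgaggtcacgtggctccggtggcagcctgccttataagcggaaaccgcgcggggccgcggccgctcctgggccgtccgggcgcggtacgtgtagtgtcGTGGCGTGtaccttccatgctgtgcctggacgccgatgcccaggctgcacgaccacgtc
Acat2: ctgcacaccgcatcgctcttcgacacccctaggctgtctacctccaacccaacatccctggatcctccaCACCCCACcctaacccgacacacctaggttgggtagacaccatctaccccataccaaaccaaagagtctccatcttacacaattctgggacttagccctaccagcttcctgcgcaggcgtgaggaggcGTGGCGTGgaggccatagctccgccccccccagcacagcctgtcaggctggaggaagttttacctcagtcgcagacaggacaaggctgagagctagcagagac

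RefSeq windows were found for 26 of the 32 genes, 33 windows in all because some genes have several starts, and those without one were Sqle, Fdps, Fdft1, Npc1, Abcg1 and Stard4. An exact match to the sterol core was present in 9.09% of them, against 6.24% of all 32851 mouse promoter windows of the same length. CCAAT was present in 80% of the 20 windows of synthesis genes and in 38.5% of the 13 windows of transport and control genes, against 37.4% of all windows. GGGCGG was present in 75.8% of the 33 windows, against 35.7% of all windows. CACGTG, an E-box, was present in 21.2%, against 7.15%. Both strands were searched, 0 matches of different motifs shared a base in the 33 windows, and a match describes the sequence only. Windows of several starts of 1 gene can overlap each other. Among the windows with no sterol core was that of Abca1, the gene of the main sterol exporter (minus strand, chr4:53159846-53160145). It is shown because Abca1 had the lowest p of the 32 genes, and its capitals mark an E-box 147 bases before the start between GGGCGG boxes at 163 and 97 bases.
Abca1: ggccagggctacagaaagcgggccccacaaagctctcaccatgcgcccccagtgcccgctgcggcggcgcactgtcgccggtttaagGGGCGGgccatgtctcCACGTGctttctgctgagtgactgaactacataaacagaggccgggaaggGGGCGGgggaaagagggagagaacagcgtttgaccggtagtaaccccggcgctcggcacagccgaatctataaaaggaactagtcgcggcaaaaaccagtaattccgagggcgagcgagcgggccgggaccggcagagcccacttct

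The count table held 20158689 to 23305306 reads per library. Kmt2c, the targeted gene, was at 143, 171 and 159 CPM (counts scaled to a common library size with TMM factors) in Mll3 KO lungs and at 162, 179 and 162 CPM in wild-type lungs. The genotypes overlapped (log2 fold change −0.09, edgeR adjusted p = 0.74), and since the labels do not say which exons are affected, a count over the whole gene does not check the genotype. Mll3 KO 3 had 59951 Xist reads, against 6 to 27 in each of the others. It had 4 reads of Y-linked genes, against 7414 to 9300 in each of the others. No wild-type library lay on its side of this split. Mll3 KO 2 stood apart in liver genes, with 41.1 CPM of Alb against 3.85 to 15.9 CPM in the other Mll3 KO lungs and 5.51 to 8.70 CPM in wild type. The sample titles begin with 1 of 2 numbers whose meaning is not stated, the lower on Mll3 KO 1, wild type 1 and wild type 2 and the higher on the others.

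Log2 fold changes of the 32 genes, Mll3 KO over wild type, ran from −0.40 to 0.14 with a median of 0.01. None of the 32 genes passed an adjusted p of 0.05 in either direction (edgeR's quasi-likelihood test, adjusted over all 19042 genes by the Benjamini-Hochberg procedure), where 0.368% of all genes did. DESeq2 and limma voom also called 0 of the 32, although DESeq2 called 1.87% of all genes. With the title number as a term, edgeR called 3.28% of all genes and again 0 of the 32. The lowest adjusted p of a member was 0.34 in the edgeR test and 0.12 over the 15 alternative fits. At an unadjusted p under 0.05 there were 3 members (9.38%), against 10.7% of all genes tested. All 3 were lower in Mll3 KO lungs, a direction that 6.02% of all genes took at that p. All 3 Mll3 KO lungs lay outside the wild-type range on 1 side for 6 members (18.8%), against 17% of all genes, and below it for 4 (12.5%), against 8.45%.

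**Figure D1:**
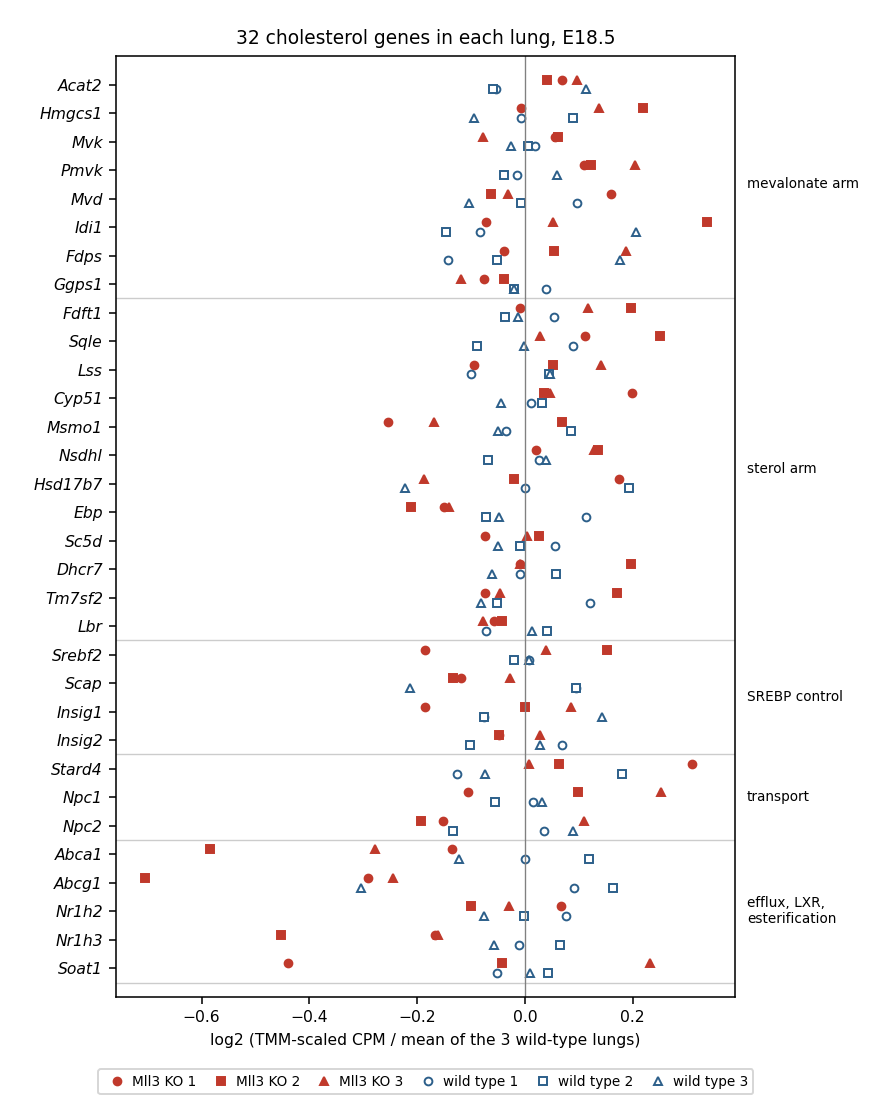
Each row is 1 of the 32 genes, grouped by role, and each point 1 lung, placed by the log2 ratio of its TMM-scaled CPM to the mean of the 3 wild-type lungs (filled red, Mll3 KO; open blue, wild type; circle, square and triangle for replicates 1, 2 and 3). The genotypes mix in most rows, and the points farthest to the left are Mll3 KO 2 at Abcg1, with 27.1 CPM, and at Abca1, with 156 CPM.

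The 20 synthesis genes differed little between the genotypes. Their log2 fold changes ran between −0.17 and 0.14 with a median of 0.051, beside a median of 0.01 over all genes tested, and 14 of 20 point estimates were above 0. Among the 13187 genes with a mean of at least 5 CPM, 72.2% had a log2 fold change in the same span. Over the 20 genes, the 95% intervals of the fold change differed in width. They came from the standard error and the total degrees of freedom (residual plus prior) of the edgeR fit. Their bounds reached down to 0.773 for Ebp and up to 1.40 for Idi1, and were 0.882 to 1.05 for Lbr and 0.887 to 1.11 for Sc5d. Summed over the 20 genes, the level was 846, 911 and 871 CPM in Mll3 KO lungs and 850, 866 and 833 CPM in wild-type lungs, with overlap between the genotypes.

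In the mevalonate arm, 7 of 8 genes had point estimates above 0 and none passed the test. Pmvk, the phosphomevalonate kinase gene, was at 20.6, 20.8 and 22.0 CPM in Mll3 KO lungs and at 18.9, 18.6 and 19.9 CPM in wild-type lungs. Every Mll3 KO lung was above every wild-type lung, but the log2 difference was 0.14 ± 0.08 (SE), with an edgeR adjusted p of 0.59. Hmgcs1, which makes HMG-CoA and is a classical SREBP-2 target, was at 218, 255 and 241 CPM in Mll3 KO lungs and at 218, 233 and 205 CPM in wild type. Mll3 KO 2 and 3 were above all wild-type lungs and Mll3 KO 1 was level with wild type 1. Its log2 fold change was 0.12 with a 95% interval of −0.05 to 0.30. Within libraries of the lower title number it was −0.05 and within those of the higher it was 0.27.

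Ggps1, which makes the geranylgeranyl diphosphate used in protein prenylation, went the other way, at 56.1, 57.5 and 54.4 CPM in Mll3 KO lungs and at 60.7, 58.3 and 58.3 CPM in wild type. The genotypes did not overlap, but the difference was small (log2 fold change −0.08, 95% interval −0.22 to 0.07). Of the other mevalonate genes, Mvk, the mevalonate kinase gene, had a log2 fold change of 0.02, and Mvd, the decarboxylase gene that makes isopentenyl diphosphate, had 0.03. Acat2, whose thiolase product feeds Hmgcs1, had 0.07 and averaged 25.7 ± 0.515 CPM in Mll3 KO and 24.5 ± 1.70 CPM in wild-type lungs (SD, n = 3 each). The isomerase gene Idi1 had 0.11 and the farnesyl diphosphate synthase gene Fdps 0.07, with the widest intervals of the 20 (−0.25 to 0.48 for Idi1 and −0.28 to 0.41 for Fdps).

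Counts of Fdps, Acat2 and Idi1 are uncertain, because 32.7% of the 75-base windows of the longest Fdps transcript, 40.7% of those of Acat2 and 20.7% of those of Idi1 also occur in transcripts of genes elsewhere in the genome. For Acat2 these include its paralogue Acat3. A further overlapping gene on the same strand holds 74.9% of the Fdps windows. The low level of Fdps, 1.33 ± 0.105 RPKM (CPM divided by exon length in kilobases) in Mll3 KO and 1.27 ± 0.146 RPKM in wild-type lungs (SD, n = 3 each), is therefore not a measure of its full message. Fdps also had the fewest reads of the 32 genes, down to 107 in 1 library.

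The sterol arm, from squalene to cholesterol, held 7 genes with point estimates above 0 and 5 below, and none passed. Ebp, the X-linked sterol isomerase gene, had the lowest value of the 20, at 16.5, 15.8 and 16.6 CPM in Mll3 KO lungs and 19.8, 17.4 and 17.7 CPM in wild type. Every Mll3 KO lung was lower than every wild-type lung, with a log2 fold change of −0.17 ± 0.09 (SE) and an edgeR adjusted p of 0.57. Mll3 KO 3, the library with the most Xist reads, was close to the other Mll3 KO lungs at Ebp and at Nsdhl, the other X-linked member. At Nsdhl it had 23.4 CPM beside 21.7 and 23.5.

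Sqle, the squalene epoxidase gene and a point of flux control in the pathway, was at 60.9, 67.1 and 57.5 CPM in Mll3 KO and at 60.0, 53.0 and 56.3 CPM in wild-type lungs. Mll3 KO 2 was the highest of the 6 and the groups overlapped (log2 fold change 0.13, 95% interval −0.05 to 0.31). Cyp51, the lanosterol demethylase gene, was at 63.6, 56.8 and 57.2 CPM in Mll3 KO and at 55.8, 56.6 and 53.7 CPM in wild type. Its groups did not overlap, though Mll3 KO 2 and wild type 2 were almost level, and the log2 difference was 0.10 ± 0.07 (SE).

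The first committed enzyme of the arm, squalene synthase (Fdft1), had a log2 fold change of 0.10, and lanosterol synthase (Lss) had 0.04. After lanosterol, the C4-methyl oxidase gene Msmo1 was at −0.11, with 41.2 ± 4.91 CPM in Mll3 KO and 44.5 ± 2.34 CPM in wild type (SD, n = 3 each). Its partners in removal of the C4 methyl groups, Nsdhl and Hsd17b7, differed little: Nsdhl had 0.10, and Hsd17b7 averaged 14.0 ± 1.74 CPM in Mll3 KO and 14.0 ± 2.00 CPM in wild type (SD, n = 3 each). Tm7sf2 and Lbr encode sterol C14 reductases, LBR being also a receptor of the nuclear lamina, and had 0.02 and −0.05. The late enzymes Sc5d and Dhcr7, of which DHCR7 makes cholesterol itself in the Kandutsch-Russell route, had −0.01 and 0.06. Part of the Fdft1 message shares sequence with Gm6781 (6.07% of its windows).

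**Figure D2:**
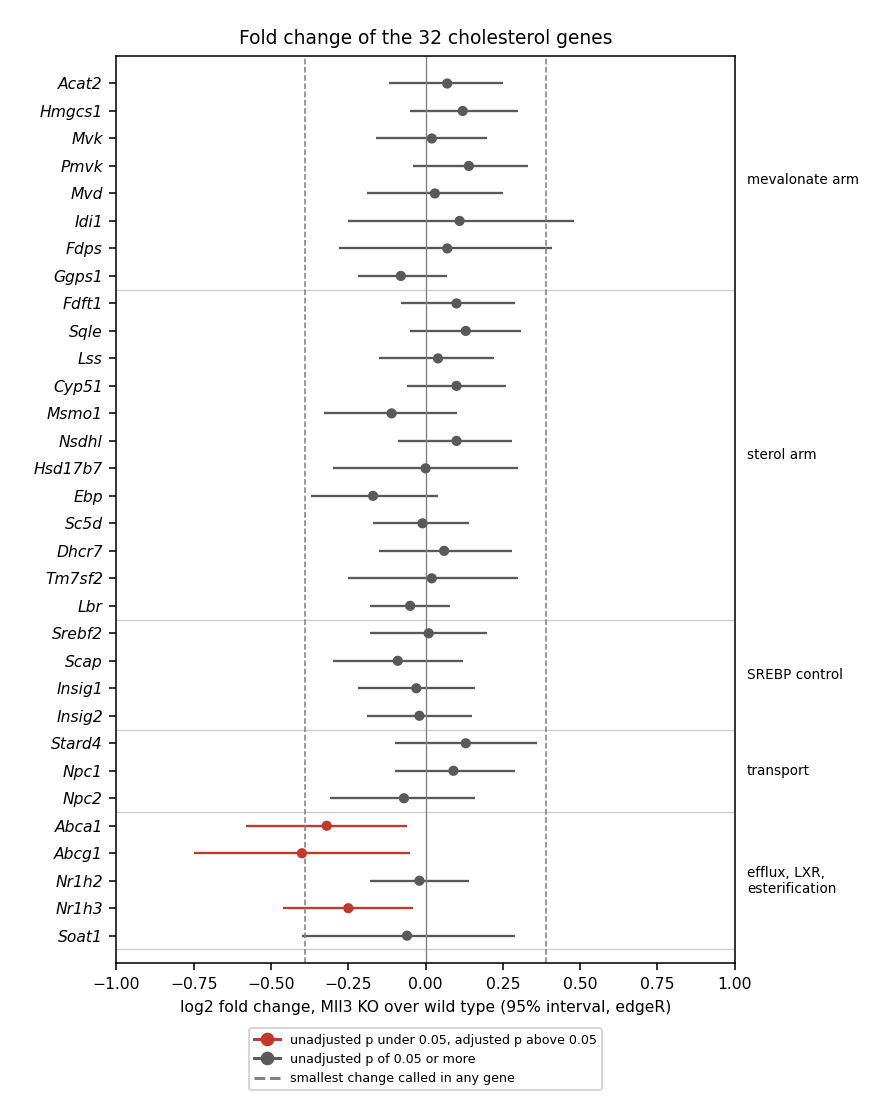
Points are log2 fold changes of Mll3 KO over wild type for the 32 genes by role, and bars are 95% intervals from the edgeR fit. Dashed lines stand at 0.39 on either side, the smallest absolute change of any gene called in the whole table, and the 3 red genes had an unadjusted p under 0.05 with an adjusted p of 0.34 or more.

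None of the 4 regulators of synthesis passed the test. Srebf2, which encodes SREBP-2, averaged 216 ± 25.4 CPM in Mll3 KO and 215 ± 2.07 CPM in wild-type lungs (SD, n = 3 each), and its Mll3 KO values of 189, 239 and 221 CPM spread on both sides of the wild-type ones. Scap, the escort of SREBP-2, was at 39.6, 39.2 and 42.2 CPM in Mll3 KO and at 45.9, 45.9 and 37.1 CPM in wild type, where wild type 3 was the lowest of all 6. Insig1, itself a sensitive SREBP-2 target, was at 102, 116 and 123 CPM in Mll3 KO and at 110, 110 and 128 CPM in wild type. Those ranges lay over each other (log2 fold change −0.03, 95% interval −0.22 to 0.16). Insig2 was at 44.2, 44.2 and 46.6 CPM in Mll3 KO and at 47.9, 42.6 and 46.6 CPM in wild type, again with overlap. The 4 edgeR adjusted p-values were between 0.79 for Scap and 0.99 for Srebf2.

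Genes of sterol traffic inside the cell also overlapped between genotypes. Stard4, which carries cholesterol through the cytosol, was at 223, 188 and 181 CPM in Mll3 KO and at 165, 204 and 171 CPM in wild-type lungs (log2 fold change 0.13, edgeR adjusted p = 0.70). Npc1, the membrane protein that moves cholesterol out of late endosomes and lysosomes, was at 170, 196 and 218 CPM in Mll3 KO and at 185, 176 and 187 CPM in wild type, and Mll3 KO 1 and 3 were the lowest and highest of the 6. Npc2, its soluble partner, was at 1217, 1183 and 1458 CPM in Mll3 KO and at 1385, 1232 and 1438 CPM in wild type. The Npc2 difference of −0.07 was smaller than its SE of 0.10.

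Per exon length, Npc2 was the most abundant of the 32 genes in both genotypes, at 236 ± 27.6 RPKM in Mll3 KO and 249 ± 19.7 RPKM in wild type (SD, n = 3 each), above 99.4% of all genes tested. Hmgcs1 followed at 51.8 ± 4.09 RPKM in Mll3 KO and 47.6 ± 3.03 RPKM in wild type, clear of the next gene, Insig1, at 36.7 ± 3.44 RPKM in Mll3 KO and 37.6 ± 3.36 RPKM in wild type. Insig1, Soat1, Stard4 and Srebf2 had overlapping SD ranges in Mll3 KO lungs. In wild type, Srebf2 at 29.9 ± 0.288 RPKM was below Soat1 at 34.6 ± 1.14 RPKM. At the lower end were Hsd17b7, Tm7sf2, Idi1 and Fdps, with means over the 6 libraries of 2.74 RPKM for Hsd17b7, 2.35 for Tm7sf2, 1.81 for Idi1 and 1.30 for Fdps. This order depends in part on the exon length used, which can exceed that of a single transcript. It was 4403 bases for Tm7sf2, 4208 for Fdps and 3505 for Idi1. Their longest protein-coding transcripts had 1498 bases for Tm7sf2, 1382 for Fdps and 3027 for Idi1. The 20 synthesis genes made up 30.2 ± 1.63% (SD over the 6 libraries) of the summed RPKM of the 32.

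**Figure D3:**
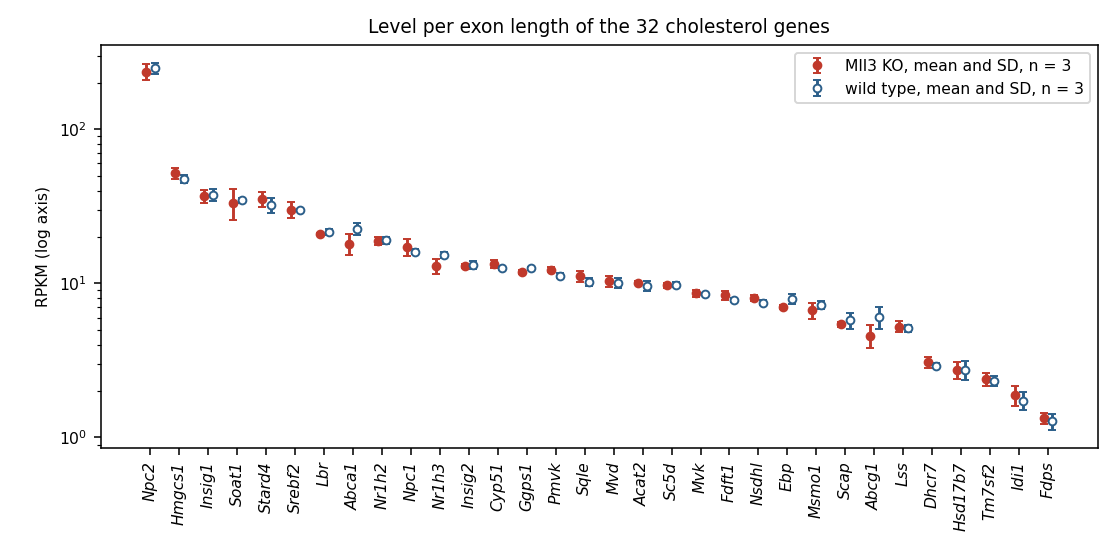
Mean RPKM of the 32 genes in order of their level over all 6 libraries, on a log axis, with SD bars (red, Mll3 KO; blue, wild type; n = 3 each). Npc2 stands alone at the top, Fdps is the lowest at 1.33 RPKM in Mll3 KO and 1.27 RPKM in wild type, and the genotypes track each other from gene to gene.

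Sterol efflux and its regulation held the 3 lowest p-values of the 32 genes. All 5 point estimates of the efflux, LXR and esterification genes were below 0, and the median was −0.25 on the log2 scale, but none passed the test over all genes. Abca1 (ENSMUSG00000015243, mm10 chromosome 4, 53030787 to 53159895), whose product hands cholesterol and phospholipid to apolipoprotein A-I, was at 213, 156 and 193 CPM in Mll3 KO and at 234, 254 and 215 CPM in wild-type lungs. The groups did not overlap, though Mll3 KO 1 came close to wild type 3. Its log2 fold change was −0.32 ± 0.11 (SE), 0.801-fold with a 95% interval of 0.669 to 0.958, at an unadjusted p of 0.021 and an adjusted p of 0.34 (edgeR).

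Nr1h3 (ENSMUSG00000002108, mm10 chromosome 2, 91184061 to 91202834) encodes LXR alpha, the oxysterol receptor that drives Abca1 and Abcg1. It was at 34.4, 28.2 and 34.5 CPM in Mll3 KO and at 38.3, 40.4 and 37.1 CPM in wild-type lungs, again without overlap. The log2 fold change was −0.25 ± 0.10 (SE), with an unadjusted p of 0.025 and an adjusted p of 0.37 (edgeR). Abcg1 (ENSMUSG00000024030, mm10 chromosome 17, 31057675 to 31117988), which exports sterol to mature lipoproteins and is known for its part in alveolar macrophages and type 2 cells, was at 36.1, 27.1 and 37.3 CPM in Mll3 KO. In wild type it was at 47.1, 49.5 and 35.8 CPM, so wild type 3 fell among the Mll3 KO lungs. Its log2 fold change was −0.40 ± 0.15 (SE), with an unadjusted p of 0.031 and an adjusted p of 0.40 (edgeR).

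In each of these 3 genes Mll3 KO 2 was the lowest library and wild type 3 the lowest of its genotype. Without Mll3 KO 2, the log2 fold changes were −0.20 for Abca1, −0.27 for Abcg1 and −0.16 for Nr1h3, and the unadjusted p-values of edgeR were 0.053, 0.079 and 0.088. Other libraries mattered too. Without wild type 2 these p-values were 0.084 for Abca1, 0.11 for Abcg1 and 0.079 for Nr1h3. Without wild type 3 they were 0.021 for Abca1, 0.0046 for Abcg1 and 0.03 for Nr1h3. Within the lower title number the log2 ratios were −0.19 for Abca1, −0.42 for Abcg1 and −0.19 for Nr1h3. Within the higher title number they were −0.30 for Abca1, −0.15 for Abcg1 and −0.24 for Nr1h3. All 6 ratios were below 0, and each rests on 3 libraries with no test.

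The other genes of the group had point estimates nearer 0. Nr1h2, which encodes the more broadly expressed LXR beta, averaged 63.1 ± 3.67 CPM in Mll3 KO and 63.9 ± 3.39 CPM in wild type (SD, n = 3 each). Soat1, whose enzyme esterifies cholesterol for storage, was at 250, 329 and 398 CPM in Mll3 KO and at 327, 349 and 341 CPM in wild type. Its Mll3 KO lungs lay on both sides of the wild-type lungs with an SD of 73.9 CPM, against 11.2 CPM in wild type, the log2 fold change was −0.06 ± 0.15 (SE), and the test addresses means, not spread.

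**Figure D4:**
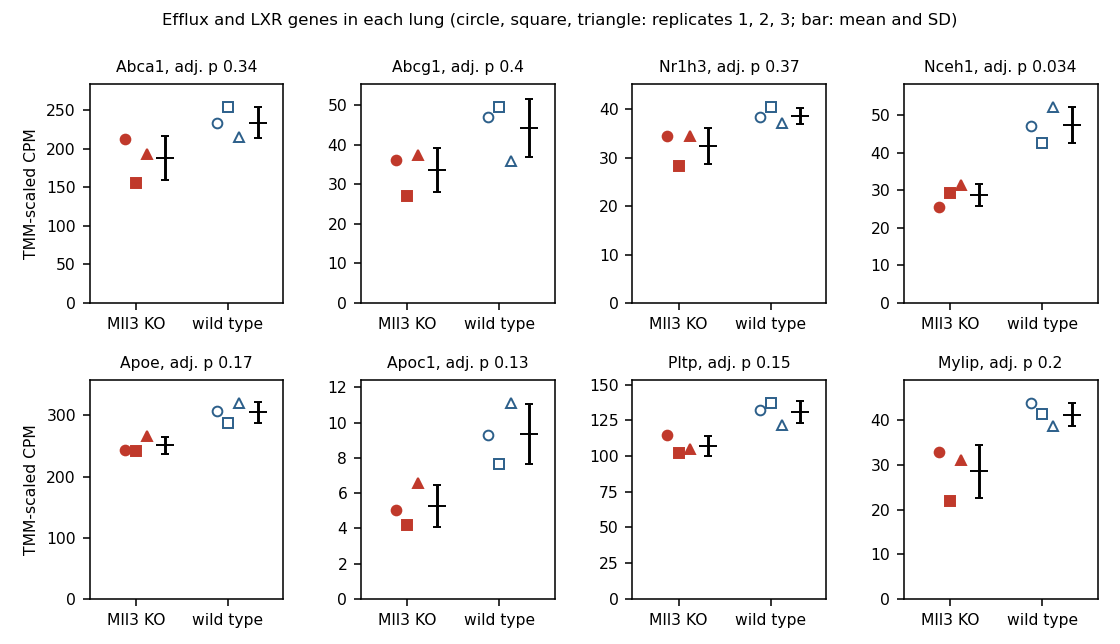
TMM-scaled CPM of 3 members (Abca1, Abcg1, Nr1h3) and of 5 related genes in each lung, Mll3 KO on the left and wild type on the right of each panel, with mean and SD (n = 3 each) beside the points and the edgeR adjusted p above. The 5 related genes were those of the related lists that DESeq2 called lower. Of the 8 genes, Nceh1 is the 1 with an adjusted p under 0.05, and in Abcg1 wild type 3, at 35.8 CPM, lies among the Mll3 KO lungs.

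Lists of related genes place the 32 in context. Of 15 other genes of sterol synthesis, uptake and SREBP processing, 0 passed in edgeR or DESeq2 and 0 had an unadjusted p under 0.05 in edgeR. Mbtps1, the site-1 protease that makes the first cut in SREBP, was at 294, 271 and 269 CPM in Mll3 KO and at 244, 252 and 258 CPM in wild type, without overlap (log2 fold change 0.15, edgeR adjusted p = 0.49). The list had a median log2 fold change of 0.01. The same counts of 0 held for 13 genes of the isoprenoid branch, where the lowest p-values belonged to Rabggta and Rce1, which act in prenylation of Rab proteins and in cleavage of prenylated proteins. Their log2 fold changes were 0.18 for Rabggta and 0.15 for Rce1.

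Of 17 tested genes of 18 listed for sterol transport, storage and hydrolysis, 1 fell and 16 did not pass, and 14 had point estimates below 0 (median log2 fold change −0.12). Nceh1, which encodes a neutral cholesterol ester hydrolase that frees stored cholesterol for efflux, was at 25.5, 29.3 and 31.4 CPM in Mll3 KO and at 47.2, 42.6 and 52.1 CPM in wild-type lungs. It fell by 0.72 on the log2 scale, with a gap between the groups and an edgeR adjusted p of 0.034. Without Mll3 KO 2, Mll3 KO 3 or any 1 of the wild-type lungs, its log2 fold change was between −0.65 and −0.80 and the edgeR adjusted p was 0.054 to 0.13. Lipa, which encodes the lysosomal acid lipase, was at −0.18, with an edgeR adjusted p of 0.46.

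The list of LXR targets and oxysterol enzymes had 11 tested genes of 15 listed. Of these, 6 had point estimates below 0 and 5 above. Their log2 fold changes ran from −0.83 to 0.38 with a median of −0.03. In edgeR 0 were called, with 4 at an unadjusted p under 0.05. Limma voom called 0 and DESeq2 called 4, all lower in Mll3 KO. Apoc1, an apolipoprotein gene beside Apoe, was at 5.02, 4.21 and 6.58 CPM in Mll3 KO and at 9.30, 7.67 and 11.1 CPM in wild type (log2 fold change −0.83 ± 0.20 SE). Pltp, the phospholipid transfer protein gene, was at 115, 102 and 105 CPM in Mll3 KO and at 132, 137 and 122 CPM in wild type. Neither overlapped, and the adjusted p-values were 0.13 for Apoc1 and 0.15 for Pltp in edgeR and 0.014 and 0.046 in DESeq2. The other two, Apoe and Mylip, are named after their values were seen. Apoe, whose apolipoprotein is made by macrophages and accepts exported cholesterol, was at 244, 241 and 267 CPM in Mll3 KO and at 308, 287 and 320 CPM in wild type (edgeR adjusted p = 0.17, DESeq2 adjusted p = 0.021). Mylip, whose ubiquitin ligase degrades the LDL receptor, was at 32.9, 21.8 and 31.0 CPM in Mll3 KO and at 43.8, 41.3 and 38.7 CPM in wild type (edgeR adjusted p = 0.20, DESeq2 adjusted p = 0.017). With the title number as a term, edgeR adjusted p-values were 0.031 for Apoc1, 0.049 for Apoe, 0.054 for Pltp and 0.11 for Mylip. That fit called 3.28% of all genes, and DESeq2 called 1.87%.

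**Figure D5:**
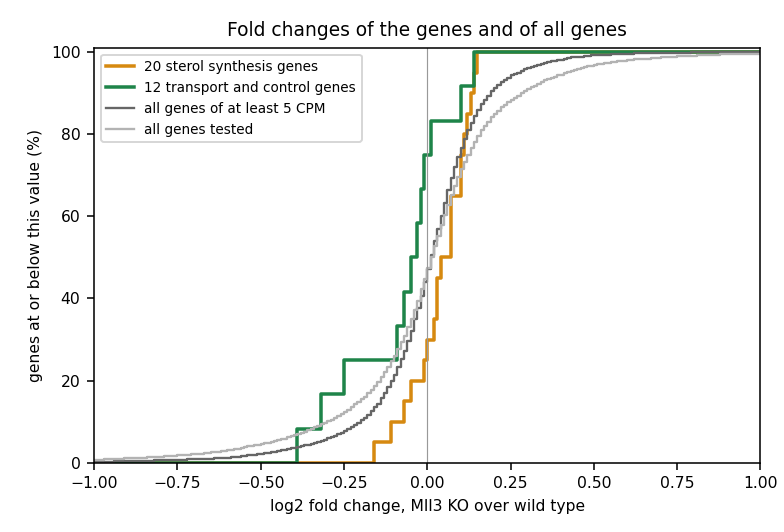
Cumulative share of genes, in percent, at or below each log2 fold change of Mll3 KO over wild type, for the 20 synthesis genes, the 12 transport and control genes, the 13187 genes of at least 5 CPM and all 19042 genes tested. The synthesis genes span −0.17 to 0.14, and the transport and control genes reach down to −0.40 (Abcg1).

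Marker lists of lung cell types differed in direction. In bulk RNA, fewer cells of a type and less RNA per cell cannot be told apart. Of 9 macrophage markers 0 passed the edgeR test, with 4 at an unadjusted p under 0.05, while DESeq2 called 1 higher and 1 lower. Of the 9, 7 had point estimates below 0, with Fcgr1 at −0.79 and Mrc1 at −0.27. Csf1r at −0.05, C1qb at −0.01 and Cd68 at 0.09, named after their values were seen, were nearer 0. Marco, named after its values were seen, went the other way, averaging 14.2 ± 6.09 CPM in Mll3 KO and 5.59 ± 1.41 CPM in wild-type lungs (SD, n = 3 each). Its groups did not overlap, with a log2 fold change of 1.34, an edgeR adjusted p of 0.29 and a DESeq2 adjusted p of 0.00072. The 9 macrophage markers summed to 174, 175 and 166 CPM in Mll3 KO and to 193, 176 and 181 CPM in wild-type lungs. All 8 alveolar type 1 markers were below 0 and 3 passed in edgeR, Aqp5 (−1.41), Pdpn (−0.74) and Clic5 (−0.58), while DESeq2, and edgeR with the title number as a term, called all 8 lower. That list summed to 3430, 3534 and 4040 CPM in Mll3 KO and to 5175, 4931 and 5369 CPM in wild type. Of 9 alveolar type 2 markers 0 passed in edgeR (3 at an unadjusted p under 0.05, 2 called higher by DESeq2) and 7 were above 0, led by Napsa (0.42) and Etv5 (0.45), and their sum was 20382 to 25312 CPM in Mll3 KO and 20309 to 22578 CPM in wild type. Of 6 endothelial markers 1 passed, Car4 (−1.05), with Kdr at −0.22, and 4 had point estimates below 0. The 2 that did not, named after their values were seen, were Tek at 0.10 and Tie1 at 0.00. The endothelial sums were 1684 to 1775 CPM in Mll3 KO and 1722 to 2112 CPM in wild type. The part of these cell types in the efflux values was not tested.

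The remaining lists had 0 members past the threshold in edgeR and in DESeq2, with 3 cell cycle genes, 2 ciliated genes and 1 hepatocyte gene at an unadjusted p under 0.05 in edgeR. With the title number as a term, edgeR called all 6 ciliated markers lower. None of the listed marker genes was at 0 reads in any library. Ciliated airway markers (Tmem212 −0.75, Foxj1 −0.44) summed to 91.1 to 157 CPM in Mll3 KO and 144 to 253 CPM in wild type, and fibroblast markers (Npnt −0.18, Col1a2 −0.18) to 3061 to 3991 CPM in Mll3 KO and 3846 to 4138 CPM in wild type. All 6 genes of either list had point estimates below 0. All 8 cell cycle genes were above 0 (Rrm2 0.37, Mcm4 0.26). They summed to 1061, 768 and 723 CPM in Mll3 KO 1, 2 and 3 and to 635, 749 and 688 CPM in wild type. Erythroid markers (Hbb-bs −0.19, Hba-a1 −0.15) summed to 2568 to 4458 CPM in Mll3 KO and 2874 to 4349 CPM in wild type. Of the nerve markers, S100b was at 0.16. Hepatocyte genes (Apoa1 1.66, Afp 1.67) summed to 67.4 CPM in Mll3 KO 2, to 8.66 and 27.6 CPM in the other Mll3 KO lungs and to 10.2 to 16.5 CPM in wild type. Mll3 KO 2 was also the highest of the 6 for 8 of the 20 synthesis genes. It was the lowest for 4 of the 5 efflux, LXR and esterification genes. How often Mll3 KO 2 was highest or lowest over all genes tested was not counted. The part of liver RNA in either group was not tested.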

How the data were processed

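RNA of 6 E18.5 lungs was sequenced as strand-specific polyadenylated libraries, per the labels' protocols. Per the submitters' processing notes bcl2fastq 2.19.1, GSNAP, featureCounts 1.6.3 and DESeq2 1.24.0 were used with mm10. Raw counts per gene were deposited, counted reverse-stranded with a mapping quality of at least 1, per the file headers. From them, 92 ERCC rows with 1 read in all were left out. The normalized signal was deposited as counts divided by 1 factor per library, which gave back the counts for 100% of values within 0.1 read.

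Genotype came from the labels. The 32 genes, the related lists and the marker lists were chosen with earlier results of these data known. Genes passing filterByExpr (19042) were tested with edgeR 4.0.16 (R 4.3.3): TMM scaling, robust quasi-likelihood fit, genotype as the only term, Benjamini-Hochberg adjustment, threshold 0.05. CPM are TMM-scaled, and RPKM divide them by the exon length of the count table. Alternatives were DESeq2 1.42.0, limma 3.58.1 (voom, and log2 of the normalized signal + 1), other scalings and filters, each library left out, and terms for the title number and the Xist and Y-linked split. The tests were first tried on simulated data. All 32 genes are named; every sample's value is given for the 3 lowest p in each role group, and the 2 lowest p and any called gene are named from each other list, except 2 genes that are not reported here. Promoters are from RefSeq (GRCm38.p6), transcripts from GENCODE M21.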

Additional observations from a re-analysis of the deposited data

How the results depend on the processing

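None of the 32 genes passed an adjusted p of 0.05, higher or lower, in any of 15 alternative fits, nor at 0.01 in the edgeR test. The sign of the log2 fold change held in all 15 fits for 18 of the 32. The median log2 fold change of the 20 synthesis genes, 0.051, became 0.084 when scaled by library size only and ran from 0.017 to 0.066 when 1 library was left out. That of the 12 transport and control genes, −0.045, became −0.109 when the model split libraries by Xist and Y-linked reads and ran from −0.113 to −0.026 when 1 library was left out. The extremes came without Mll3 KO 2 (0.017) and without Mll3 KO 3 (−0.113), and Mll3 KO 3 is alone on its side of the Xist split. In the related lists, the 1 lower call became 3 with the title number as a term, 5 with no filter on low counts, 5 with DESeq2 and 0 at an adjusted p under 0.01. With 1 library left out it was 0 to 1, and the higher calls were 0 throughout. The cause was not tested, except that leaving out a library means fewer samples. The labels give no replicate numbers, and the title numbers shared by the genotypes entered as the term above. With 3 libraries per genotype, the printed intervals give the precision reached.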
